A study of Homo sapiens with 18 samples.

Results

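The genes described here make cholesterol and fatty acids, or set how much of these lipids a cell makes. They were followed in BE(2)-m17 cells, an established human neuroblastoma line, with and without overexpression of ABCC1, a membrane exporter of drugs and glutathione conjugates. The list held 33 genes, of which 32 were matched by Ensembl identifier and symbol among the 57905 Ensembl genes counted, and ACACA was not analysed here. By role they were 8 genes of the mevalonate steps, 11 of the steps from squalene to cholesterol, 5 regulators of the SREBP transcription factors, 2 SREBP targets that handle lipids, and 6 genes of fatty acid synthesis and desaturation.

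RNA was sequenced in 3 experiments, with 3 libraries of each line in each, for 18 libraries in all. Every line carried the vector pSBbi-Hyg-APP, so APP was overexpressed in controls as well. The control line (Puro) also carried the empty vector pSBbi-Pur, and the other line (ABCC1) carried pSBbi-Pur-ABCC1(WT), which holds a codon-optimized cDNA. The vectors are Sleeping Beauty transposons, and each line was a population of stable transfectants selected with hygromycin and puromycin, so a line and its transfection cannot be told apart within an experiment. Each well received 14000000 cells, and RNA was taken on day 4. The study repeated the work with cryopreserved and with newly transfected cells; the labels only number the experiments, and the order in which the study lists them would make the second the cryopreserved and the third the newly transfected cells. The kit label names a TruSeq RNA kit for the first experiment and the SMARTer total RNA kit for the later ones, while the extraction text names the SMARTer kit throughout, so kit and experiment cannot be told apart. The study's methods describe weekly platings of each line, but the labels do not tie a library to a plating, so p-values measure the spread between these libraries, which may be in part technical.

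Animal cells build cholesterol from acetyl-CoA through the mevalonate pathway, whose later products are squalene, lanosterol and cholesterol. When sterols are scarce in the endoplasmic reticulum, SCAP escorts the precursors of SREBP-1 (SREBF1) and SREBP-2 (SREBF2) to the Golgi, where proteases release the active factors. When sterols are plentiful, INSIG1 and INSIG2 hold SCAP back. SREBP-2 mainly drives sterol genes, and SREBP-1 mainly drives genes that make and desaturate fatty acids. In neural cells the desaturases FADS1 and FADS2 make the long polyunsaturated fatty acids that enter membrane phospholipids.

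Libraries held 8866994 to 57937653 counts. Exogenous ABCC1 had 51035 to 594404 counts in the 9 ABCC1 libraries and 0 to 15 in the 9 Puro libraries. Genes of the adrenergic neuroblastoma state were above 0 in every group. Replicates were compared by a chi-square of their counts per degree of freedom, which also grows with depth. ABCC1 replicate 3 of the first experiment stood apart from replicates 1 and 2 of its group (24.05 and 17.96, against 1.533 between those), and Puro replicate 2 of the third experiment stood apart from replicates 1 and 3 of its group (9.272 and 10.62, against 3.798). Pairs of the second experiment differed by 9.605 to 26.14. The spread between replicates, as the biological coefficient of variation, was 5.67% in the first, 35.26% in the second and 19.71% in the third experiment. The 349 olfactory receptor genes, which a neuroblastoma cell should not transcribe, gave a background that also moved with the line: 0.0051 and 0.0041 CPM (counts scaled to a common library size) per kilobase of exon in Puro and ABCC1 libraries of the first experiment, 0.582 ± 0.088 and 0.303 ± 0.15 in the second, and 1.59 ± 0.09 and 1.26 ± 0.16 in the third (mean ± SD, n = 3). Its part in the results was not tested beyond the fits that include it, given in the closing part.

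The promoters of a few members are shown here because FADS1 and FADS2 were the members that moved in more than 1 experiment, STARD4 and HMGCS1 moved in the first, and SREBF2 held the only sterol regulatory element found. Each is the 250 bases before the start of the first RefSeq entry of the gene (GRCh38.p14). Capitals mark CCAAT boxes, read as CCAAT or as ATTGG on the other strand, and the sterol regulatory element consensus TCACNCCAC. The windows are chr11:61817004-61817253 on the minus strand for FADS1, chr11:61815953-61816202 on the plus strand for FADS2, chr5:111512536-111512785 on the minus strand for STARD4, chr5:43313413-43313662 on the minus strand for HMGCS1 and chr22:41832855-41833104 on the plus strand for SREBF2.
FADS1: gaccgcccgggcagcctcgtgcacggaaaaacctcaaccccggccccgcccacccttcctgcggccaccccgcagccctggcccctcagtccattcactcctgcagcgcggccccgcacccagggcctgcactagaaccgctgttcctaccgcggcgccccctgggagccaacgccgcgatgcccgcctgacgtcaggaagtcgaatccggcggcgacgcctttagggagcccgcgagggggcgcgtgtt
FADS2: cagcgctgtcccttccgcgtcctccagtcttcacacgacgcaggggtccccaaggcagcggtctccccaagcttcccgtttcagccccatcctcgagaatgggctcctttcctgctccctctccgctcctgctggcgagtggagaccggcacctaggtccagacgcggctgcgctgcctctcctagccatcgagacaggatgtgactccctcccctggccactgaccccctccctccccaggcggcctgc
STARD4: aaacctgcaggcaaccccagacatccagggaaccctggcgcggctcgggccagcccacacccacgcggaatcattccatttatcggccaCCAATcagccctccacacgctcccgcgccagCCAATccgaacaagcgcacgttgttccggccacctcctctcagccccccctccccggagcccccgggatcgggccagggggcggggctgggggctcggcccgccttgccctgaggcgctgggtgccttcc
HMGCS1: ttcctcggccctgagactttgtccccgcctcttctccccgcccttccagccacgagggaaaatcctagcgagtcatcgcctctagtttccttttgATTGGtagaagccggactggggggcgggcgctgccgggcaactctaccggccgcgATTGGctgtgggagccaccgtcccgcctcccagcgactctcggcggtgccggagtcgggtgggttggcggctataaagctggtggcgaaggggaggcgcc
SREBF2: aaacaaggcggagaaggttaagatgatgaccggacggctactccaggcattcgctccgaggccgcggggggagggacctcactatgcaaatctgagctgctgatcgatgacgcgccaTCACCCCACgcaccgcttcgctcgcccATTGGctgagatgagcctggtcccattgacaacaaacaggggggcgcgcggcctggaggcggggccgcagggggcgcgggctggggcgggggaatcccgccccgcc

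In these letters FADS1 and FADS2 held no CCAAT box, STARD4 and HMGCS1 held 2 each, and SREBF2 held 1 beside its sterol regulatory element. RefSeq gave a promoter for 28 of the 32 members, in 40 entries, and a gene counted as holding a motif if any of its entries did. CCAAT stood in the promoters of 19 members (67.9%), against 37.0% of 27305 genes. The GC box GGGCGG stood in 27 members (96.4%), against 46.2% of genes. TCACNCCAC stood in 1 member (3.57%), against 1.09%. All motifs were searched on both strands, and none of these patterns is contained in another. A match is a description of the sequence, and its absence says only that these letters are not in this window.

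Levels were compared between genes as CPM per kilobase of exon. In Puro libraries the 4 highest members were the same in every experiment: ACLY, which makes cytosolic acetyl-CoA from citrate, FASN, the fatty acid synthase, SCD, which puts the first double bond into saturated fatty acids, and SREBF2. In the first experiment ACLY stood at 85.5 ± 0.97 CPM per kilobase, SCD at 81.2 ± 3.61, FASN at 62.0 ± 3.41 and SREBF2 at 56.7 ± 1.58 (mean ± SD, n = 3). The median member was at 14.4 CPM per kilobase in the first, 5.81 in the second and 7.21 in the third experiment. The lowest were HSD17B7 (0.892) in the first experiment and CYP51A1 (0.709 and 1.23) in the others. HSD17B7 is a ketosteroid reductase of the late pathway and CYP51A1 the lanosterol demethylase.

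The background touched the low members most. In Puro libraries of the third experiment the olfactory receptor level equalled at least 50% of the level per kilobase of 5 members: ACAT2, MVD, CYP51A1, INSIG1 and INSIG2. In the second experiment this held in Puro libraries for CYP51A1, and in the first for no member. With the background level subtracted from the group means, 7 of 31 members changed sign in the third experiment (ACAT2, GGPS1, HSD17B7, INSIG1, INSIG2, MVD and STARD4, all to positive), and the median of these 31 went from -0.04 to 0.24. ACAT2 went to 1.02, INSIG1 to 0.96 and MVD to 0.66 there, and the Puro level of CYP51A1 fell below 0, so it had no value. STARD4 also changed sign in the second experiment (0.12) and CYP51A1 went to 2.55 there, while in the first no member changed sign. In counting without strand, 17 members shared exon bases with another gene. The share was largest for CYP51A1, at 82.2% of its exon bases (with CYP51A1-AS1 and LRRD1), then for ACAT2 at 53.0% and SCD at 36.8%. Values of these genes can depend on whether reads on shared bases were kept or dropped, which was not tested. Levels per kilobase were taken over the full exon length.

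**Figure D1:**
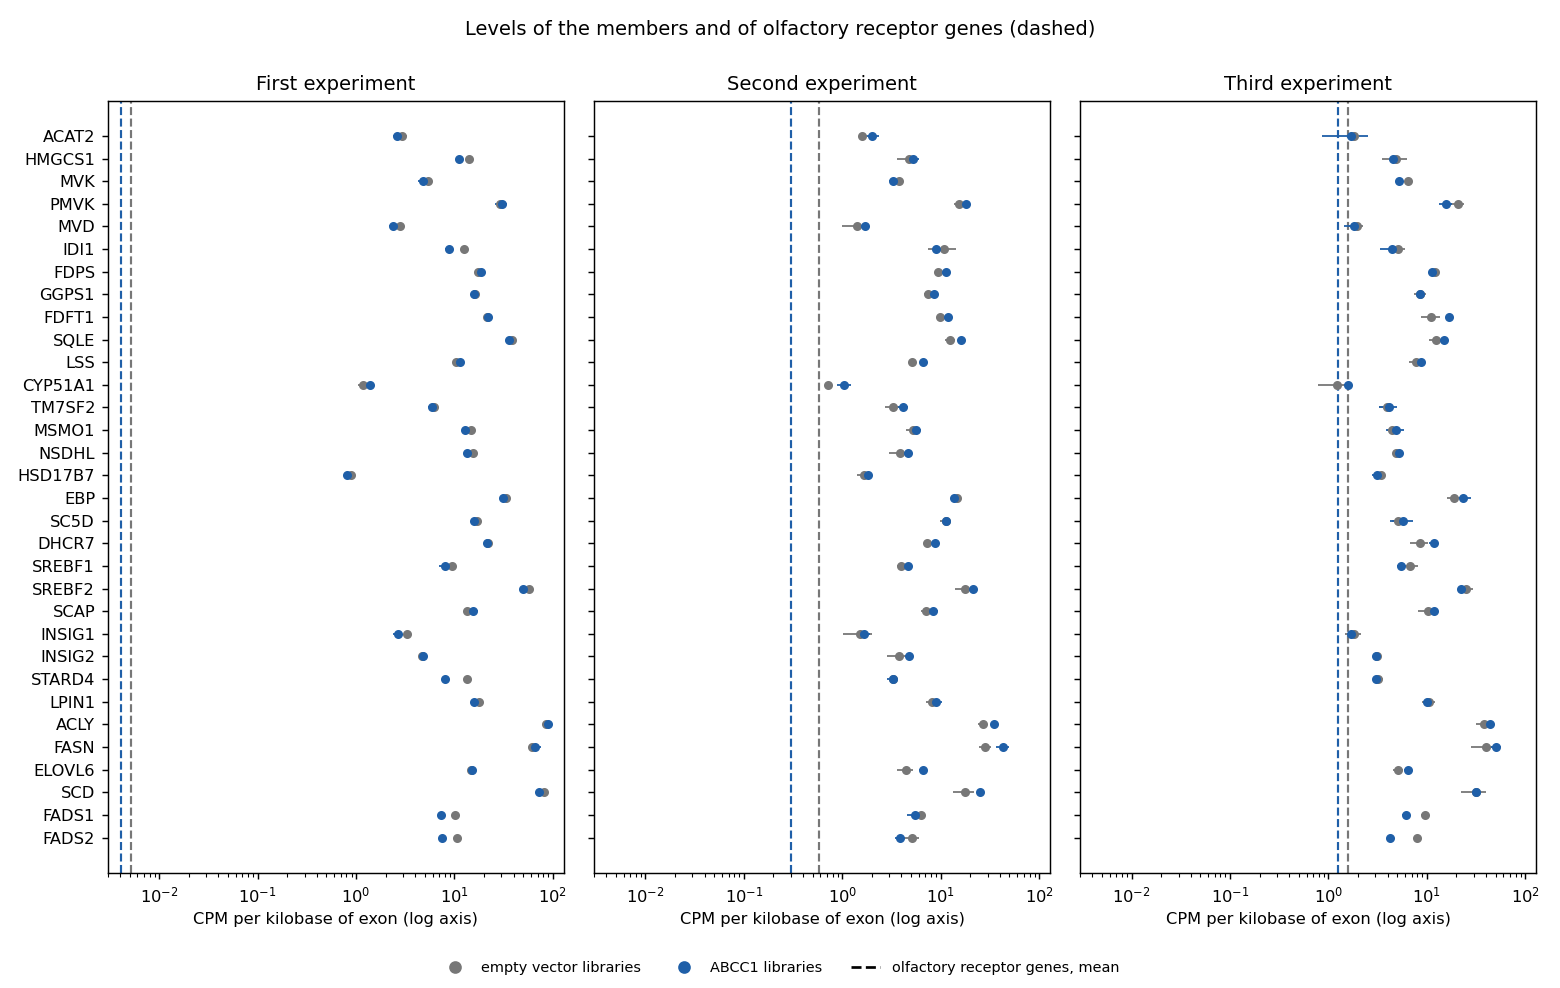
Mean level of each member (rows) as CPM per kilobase of exon on a log axis, with SD as bars (n = 3), in Puro (grey) and ABCC1 (blue) libraries of each experiment; dashed lines give the mean level of olfactory receptor genes. The dashed lines sit near 0.005 CPM per kilobase in the first experiment and reach 1.59 in the third, where they meet the lowest members.

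FADS1 and FADS2 fell with ABCC1 in the first and in the third experiment, and no other member was called in more than 1 experiment. A gene was called when its p, adjusted over all features tested within an experiment, did not exceed 0.05 in the quasi-likelihood test of edgeR. FADS2 is the delta-6 desaturase that starts the conversion of linoleic and alpha-linolenic acid, and FADS1 is the delta-5 desaturase that acts later in that conversion. The genes are neighbours on chromosome 11 in the build of the files (GRCh37), FADS1 at chr11:61567099-61596790 on the minus strand and FADS2 at chr11:61560452-61634826 on the plus strand. Among all features tested in the 3 experiments, 1.29% were lower at this threshold in at least 2 of them, and 4.04% were higher, as no member was.

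FADS2 measured 118, 121 and 116 CPM in the Puro libraries of the first experiment and 80.5, 81.4 and 84.6 in the ABCC1 libraries. The ABCC1 libraries were all below the Puro libraries (log2FC = -0.53 ± 0.04 SE, adjusted p = 3.96e-06, edgeR). In the third experiment FADS2 measured 85.0, 91.2 and 89.3 CPM against 50.8, 43.9 and 46.4. Here too the groups were apart, with a larger fold (log2FC = -0.91 ± 0.17, adjusted p = 0.000125, edgeR). In the second experiment FADS2 measured 45.4, 63.5 and 61.6 CPM in Puro and 38.7, 47.8 and 41.3 in ABCC1 libraries. The lowest Puro library lay within the range of the ABCC1 libraries, and the difference did not pass the test (log2FC = -0.42 ± 0.17, adjusted p = 0.159, edgeR).

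FADS1 measured 103, 104 and 102 CPM in Puro libraries of the first experiment and 75.5, 76.7 and 69.5 in ABCC1 libraries. The groups did not overlap (log2FC = -0.48 ± 0.05, adjusted p = 2.09e-05, edgeR). In the third experiment it measured 91.6, 109 and 96.0 CPM against 65.9, 56.4 and 67.1. These groups were also apart (log2FC = -0.65 ± 0.17, adjusted p = 0.0159, edgeR). In the second experiment FADS1 measured 57.3, 67.7 and 69.9 CPM against 50.3, 65.7 and 50.8, with ABCC1 replicate 2 among the Puro values (log2FC = -0.22 ± 0.17, adjusted p = 0.436, edgeR).

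In the third experiment FADS2 kept its call with each library left out (adjusted p 4.13e-06 to 0.0212, edgeR), and FADS1 lost its call without Puro replicate 1 (adjusted p = 0.0741), Puro replicate 3 (0.101), ABCC1 replicate 2 (0.268) or ABCC1 replicate 3 (0.116). FADS1 also lost its call there with RLE size factors. When the 18 libraries were fitted together, the mean effect over the experiments was -0.55 ± 0.09 for FADS2 (adjusted p = 3.88e-06) and -0.39 ± 0.09 for FADS1 (adjusted p = 0.000909). The test of whether the effect differed between experiments gave an adjusted p of 0.667 for FADS2 and 0.84 for FADS1.

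**Figure D2:**
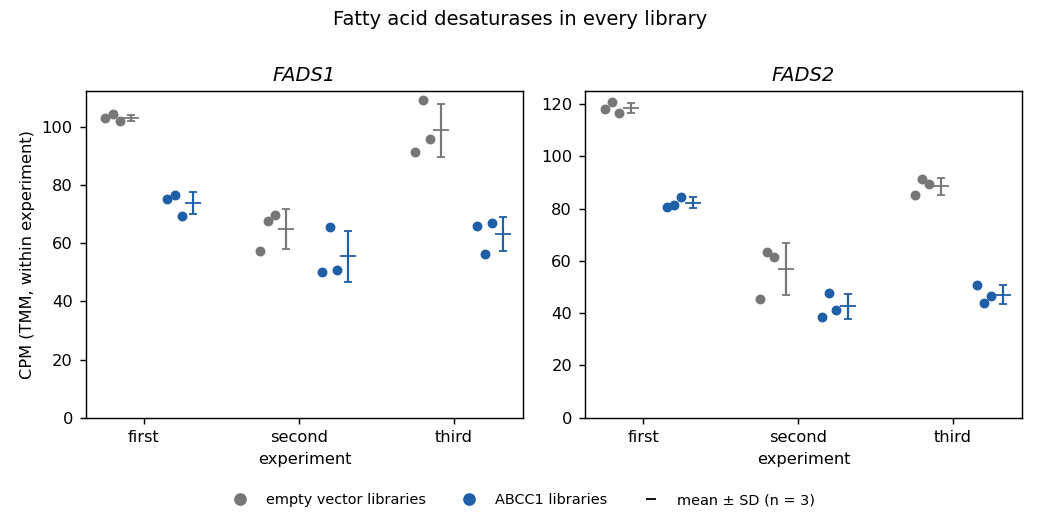
CPM of FADS1 and FADS2 (y axis, TMM-scaled within each experiment) in every library of the 3 experiments, Puro in grey and ABCC1 in blue, with mean ± SD (n = 3) beside the points. ABCC1 libraries lie below all Puro libraries in the first and in the third experiment, and the groups overlap in the second.

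Genes whose starts lie within 200 kb of the start of FADS1 were looked at after the values of FADS1 and FADS2 were seen. FEN1, a replication endonuclease, had a log2FC of -0.05 ± 0.04, 0.12 ± 0.17 and 0.41 ± 0.19 in the 3 experiments, and none passed the test. Its start is close to the outermost start that the GRCh37 annotation gives FADS2. The RefSeq windows shown above put the start of FADS2 close to that of FADS1 instead. FADS3, the third gene of the family, was called higher in the first experiment (log2FC = 0.24 ± 0.08, adjusted p = 0.0385, edgeR) and was not called in the second (0.44 ± 0.17) or the third (0.01 ± 0.17). MYRF, which encodes a myelin transcription factor, was called lower in the first experiment (log2FC = -0.72 ± 0.10, adjusted p = 0.000212, edgeR), and had -0.35 ± 0.19 and -0.27 ± 0.16 in the others. BEST1, an anion channel gene, was also called lower in the first (log2FC = -0.35 ± 0.09, adjusted p = 0.013, edgeR), and had -0.08 ± 0.19 and -0.38 ± 0.16 in the others. DAGLA, a diacylglycerol lipase gene, was called higher in the first experiment (log2FC = 0.28 ± 0.08, adjusted p = 0.0142, edgeR) and was not called in the second (0.24 ± 0.20) or the third (0.16 ± 0.17). TMEM258 and RAB3IL1 were positive and FTH1 was of mixed sign, and none of these was called. Of the exon bases, FADS1 shared 5.57% and FADS2 4.89% with other genes, in part with each other.

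**Figure D3:**
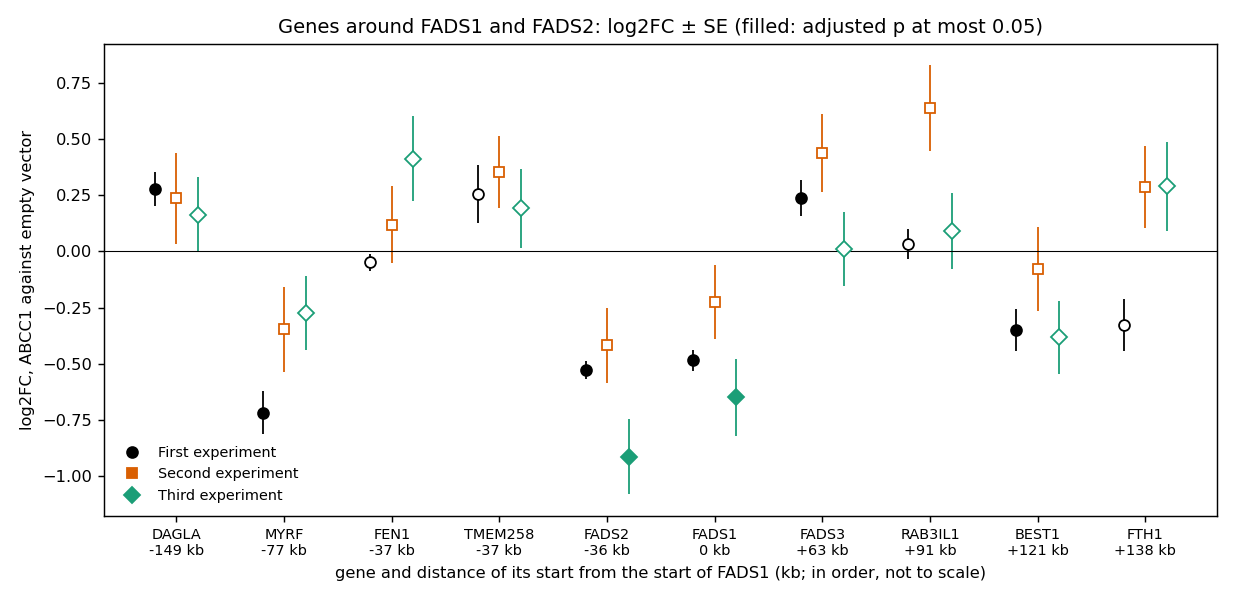
log2FC of ABCC1 against Puro (y axis, with SE as bars) for FADS1, FADS2 and the tested genes around them in the 3 experiments. Genes are ordered by the distance of their outermost annotated start (GRCh37) from that of FADS1 in kb. FADS1, FADS2, MYRF and BEST1 are below 0 in each, and TMEM258, FADS3, DAGLA and RAB3IL1 are above 0 in each.

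In the first experiment 13 of the 32 members were lower with ABCC1 and 1 was higher. Over all 16995 features tested, 37.6% were called, 19.7% lower and 17.9% higher. The log2FC was below 0 for 22 members (48.8% of all features), and its median was -0.13 over the members and 0.01 over all features. The ABCC1 libraries all lay below the Puro libraries for 13 members (25.7% of all features) and above them for 4 (24.7%). With ABCC1 replicate 3 left out, 17 members were called, 14 lower and 3 higher, while calls over all features rose to 46.2%. With any of the other 5 libraries left out, 8 to 10 members were called, with 26.2% to 32.7% of all features. A covariate for background reads left 4 calls (STARD4, IDI1, FADS1 and FADS2, all lower, with 7.38% of all features called). In this experiment the covariate ran from 0.0047 to 0.0056 CPM per kilobase in Puro and from 0.0039 to 0.0045 in ABCC1 libraries. That fit therefore cannot tell background from line. The spread of all 18 libraries left STARD4 alone (3.31%), with a median log2FC of -0.03 over the members. This setting also filtered and scaled the 18 libraries together, so here and below its log2FC values can move along with the spread. HMGCS1 went from -0.33 to -0.23 and FDFT1 from 0.03 to 0.13.

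Of the 8 mevalonate genes 3 fell in the first experiment. IDI1, the isopentenyl diphosphate isomerase, measured 46.4, 41.9 and 46.9 CPM in Puro and 33.0, 33.0 and 28.5 in ABCC1 libraries. All ABCC1 values were below the Puro values (log2FC = -0.52 ± 0.07, adjusted p = 0.000224, edgeR). HMGCS1, the cytosolic HMG-CoA synthase, measured 64.7, 66.3 and 66.1 CPM against 53.3, 53.7 and 49.6. These groups were apart too (log2FC = -0.33 ± 0.05, adjusted p = 0.000317, edgeR). MVD, the diphosphomevalonate decarboxylase, was the third (log2FC = -0.23 ± 0.08, adjusted p = 0.0369, edgeR), and kept its call in 6 of 14 alternative fits. The mevalonate kinase gene MVK (-0.18 ± 0.08), ACAT2 (-0.20 ± 0.10), PMVK (0.07 ± 0.10), FDPS (0.09 ± 0.05) and GGPS1 (-0.03 ± 0.05) did not pass.

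Of the 11 genes between squalene and cholesterol, 2 fell and 1 rose in the first experiment. MSMO1, the methylsterol oxidase, fell by 0.21 ± 0.06 on the log2 scale (adjusted p = 0.026, edgeR), and EBP, the sterol isomerase, fell by 0.13 ± 0.04 (adjusted p = 0.0287). LSS, the lanosterol synthase, rose by 0.13 ± 0.04 (adjusted p = 0.0459). Of 14 alternative fits, MSMO1 kept its call in 10, LSS in 4 and EBP in 3, and EBP and LSS were each called in 1 of the 6 fits with a library left out. SQLE, the squalene epoxidase, measured 173, 158 and 164 CPM in Puro and 159, 157 and 153 in ABCC1 libraries. The ranges overlapped (log2FC = -0.08 ± 0.04, adjusted p = 0.172, edgeR). FDFT1, the squalene synthase, measured 116, 111 and 111 CPM against 113, 111 and 120, with no separation of the groups (log2FC = 0.03 ± 0.04, adjusted p = 0.654).

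Among the SREBP regulators 3 of 5 fell in the first experiment. INSIG1 measured 12.5, 11.9 and 11.5 CPM in Puro and 10.2, 8.59 and 10.3 in ABCC1 libraries, with no overlap (log2FC = -0.29 ± 0.08, adjusted p = 0.0189, edgeR). SREBF1 measured 82.7, 74.2 and 72.5 CPM against 59.0, 59.4 and 73.4, and SREBF2 measured 431, 436 and 414 against 353, 366 and 414. In both genes ABCC1 replicate 3, the library that stood apart, lay among the Puro values while replicates 1 and 2 were below them. SREBF1 had a log2FC of -0.26 ± 0.09 (adjusted p = 0.0421, edgeR) and -0.37 ± 0.05 without that library (adjusted p = 6.75e-06). SREBF2 had -0.18 ± 0.06 (adjusted p = 0.034) and -0.25 ± 0.03 without it (adjusted p = 3.95e-06). With any of the other 5 libraries left out, neither gene was called (adjusted p 0.0602 to 0.153 for SREBF1 and 0.0622 to 0.13 for SREBF2, edgeR). INSIG1 was called in 3 of the 6 fits with a library left out, and lost its call without Puro replicate 1 or 2 or ABCC1 replicate 2 (adjusted p 0.0522 to 0.0829). With background reads as a covariate it had a log2FC of -0.16 ± 0.16 (adjusted p = 0.64, edgeR), and with the spread of all 18 libraries -0.19 ± 0.19 (adjusted p = 0.908). SCAP (0.19 ± 0.08) and INSIG2 (0.03 ± 0.06) did not pass.

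STARD4, a carrier of cholesterol between membranes, had the largest fold of any member in the first experiment. It measured 78.2, 73.4 and 75.8 CPM in Puro and 45.0, 44.7 and 46.3 in ABCC1 libraries. The groups were far apart against their spread (log2FC = -0.74 ± 0.05, adjusted p = 7.68e-07, edgeR). LPIN1, a phosphatidate phosphatase, also fell (log2FC = -0.18 ± 0.04, adjusted p = 0.00384, edgeR), and had -0.08 ± 0.16 with the spread of all 18 libraries (adjusted p = 1). Apart from the desaturases FADS1 and FADS2, SCD was the fatty acid gene that fell, with 457, 427 and 422 CPM against 389, 387 and 389 (log2FC = -0.17 ± 0.04, adjusted p = 0.0112, edgeR). With the shared spread SCD had -0.07 ± 0.18 (adjusted p = 1), and with the background covariate -0.17 ± 0.09 (adjusted p = 0.325, edgeR). FASN measured 592, 546 and 533 CPM against 552, 542 and 686, with the high value in ABCC1 replicate 3 (log2FC = 0.09 ± 0.09, adjusted p = 0.441). ELOVL6, an elongase of saturated fatty acids, was at 0.01 ± 0.04 and ACLY at 0.06 ± 0.04, and neither passed.

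**Figure D4:**
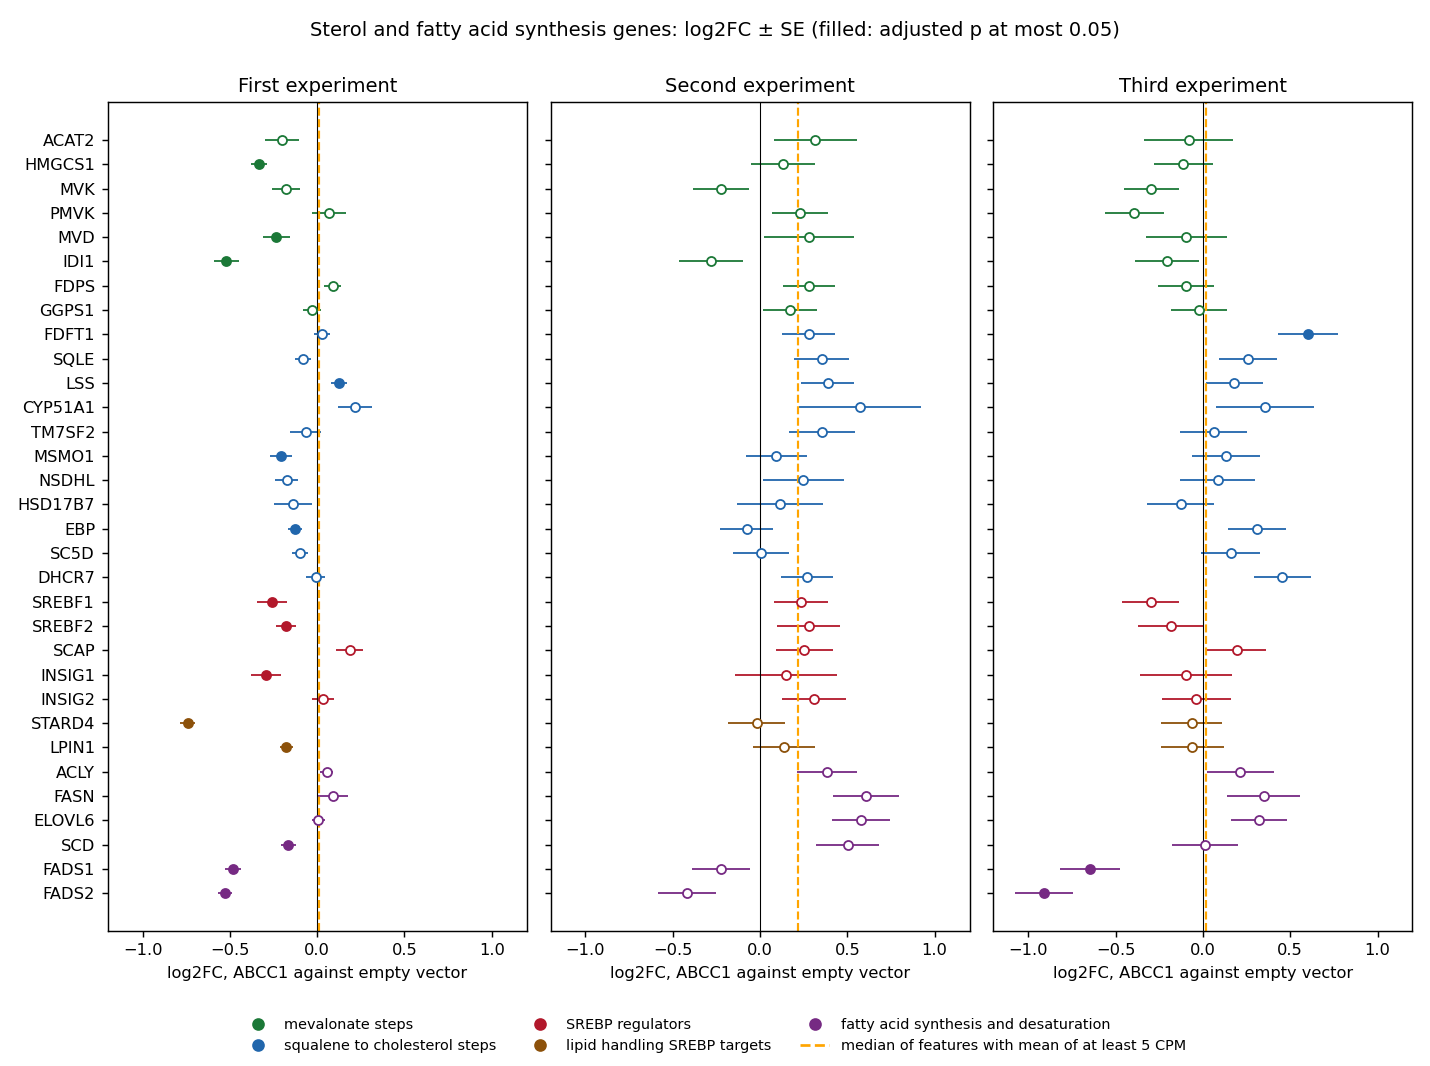
log2FC of ABCC1 against Puro with SE for the 32 members (rows, coloured by role) in each experiment; filled points passed an adjusted p of 0.05, and the dashed line is the median of features with a mean of at least 5 CPM. Of the members, 14 are filled in the first panel, 0 in the second and 3 in the third, and most points of the second panel lie to the right of 0 near the dashed line.

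In the second experiment the edgeR fit with TMM scaling called no member, against 1.7% of 34091 features (1.25% higher and 0.458% lower), and 7 had an unadjusted p under 0.05 (21.2% of all features). Of the other edgeR settings, 4 called 1 or 2 members (ELOVL6 and FASN higher, FADS2 lower), with 2.58% to 10.7% of all features called. DESeq2 called 5, all higher (ACLY, ELOVL6, FASN, LSS and SCD), with 8% of all features. The log2FC was below 0 for 6 members (59.3% of all features), and its median was 0.25 over the members and -0.19 over all features tested. Among features with a mean of at least 5 CPM the medians were 0.25 for 31 members and 0.22 for all. Another scaling (library totals alone) moved the median of all features to -0.39 and that of the members to 0.05. The ABCC1 libraries of 10 members all lay above the Puro libraries (13.5% of all features), and those of 0 members all lay below (16.4%). These 10 were FDPS, FDFT1, SQLE, LSS, CYP51A1, DHCR7, ACLY, FASN, ELOVL6 and SCD.

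FASN measured 242, 293 and 228 CPM in Puro and 447, 384 and 330 in ABCC1 libraries of the second experiment (log2FC = 0.61 ± 0.19, adjusted p = 0.0846, edgeR). SCD measured 76.4, 119 and 86.9 against 139, 129 and 131 (log2FC = 0.50 ± 0.18, adjusted p = 0.125), and SQLE 47.4, 53.8 and 59.9 against 66.2, 69.5 and 70.1 (log2FC = 0.35 ± 0.16, adjusted p = 0.205). All 3 genes were apart between the groups and did not pass this test. FASN was called in 3 of 14 alternative fits, with DESeq2 (adjusted p = 0.00738), with no filter on low counts (0.0431) and with the spread of all 18 libraries (0.0264), and SCD in 1, with DESeq2 (0.0289). FDFT1 measured 53.0, 51.2 and 48.4 CPM against 63.8, 59.5 and 61.5, apart as well (log2FC = 0.28 ± 0.15, adjusted p = 0.293).

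The other named genes overlapped between the lines in the second experiment. STARD4 measured 18.6, 18.5 and 19.5 CPM in Puro and 20.9, 18.5 and 16.4 in ABCC1 libraries (log2FC = -0.02 ± 0.16, adjusted p = 0.953, edgeR). IDI1 measured 26.3, 40.0 and 50.9 against 32.7, 31.6 and 32.3, with a wide Puro range (log2FC = -0.28 ± 0.18, adjusted p = 0.381). HMGCS1 measured 15.9, 25.0 and 26.2 against 21.4, 28.8 and 23.6 (log2FC = 0.13 ± 0.18, adjusted p = 0.693). For the regulators, SREBF1 measured 29.0, 34.0 and 32.5 against 41.4, 33.3 and 37.5, SREBF2 104, 153 and 138 against 163, 166 and 150, and INSIG1 4.73, 4.25 and 7.51 against 4.97, 6.78 and 6.48. None of these regulators passed the test.

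In the third experiment FADS1 and FADS2 fell and FDFT1 rose, 3 of 32 members, against 2.8% of 36509 features (2.03% higher and 0.767% lower). FDFT1 measured 51.3, 72.7 and 49.6 CPM in Puro and 83.1, 86.9 and 93.3 in ABCC1 libraries. Puro replicate 2 was higher than the other Puro libraries but still below the ABCC1 libraries (log2FC = 0.60 ± 0.17, adjusted p = 0.0318, edgeR). FDFT1 lost its call without Puro replicate 1 (adjusted p = 0.229), Puro replicate 3 (0.271), ABCC1 replicate 2 (0.164) or ABCC1 replicate 3 (0.219). It also lost its call with a covariate for background reads (log2FC = 0.31). The log2FC was below 0 for 17 members (58.4% of all features), and its median was -0.03 over the members and -0.09 over all features. The groups did not overlap for 3 members lower with ABCC1 (10.9% of all features), FADS1, FADS2 and MVK, and for 2 higher (8.59%), FDFT1 and ELOVL6.

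STARD4 in the third experiment measured 19.1, 19.4 and 15.6 CPM in Puro and 16.4, 17.6 and 17.8 in ABCC1 libraries, with overlap (log2FC = -0.06 ± 0.17, adjusted p = 0.902, edgeR). Background equalled 49.9% of its Puro level. IDI1 measured 14.7, 21.2 and 19.1 CPM against 12.7, 14.8 and 20.1, and HMGCS1 18.7, 30.4 and 19.8 against 21.7, 21.2 and 20.9. Both pairs of groups overlapped and did not pass.

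FASN measured 327, 472 and 272 CPM against 395, 475 and 495 in the third experiment, SCD 148, 223 and 132 against 159, 180 and 169, and SQLE 49.7, 63.2 and 47.9 against 57.5, 68.0 and 67.2. In each of the 3 genes Puro replicate 2 was the high Puro library and lay within or above the ABCC1 range. SREBF1 measured 43.0, 64.7 and 54.7 against 39.2, 46.6 and 46.1, SREBF2 171, 226 and 174 against 157, 177 and 168, and INSIG1 5.19, 7.17 and 7.40 against 6.15, 6.19 and 6.11. None of these 6 genes passed. SREBF1 was called lower with library totals alone (log2FC = -0.42 ± 0.12, adjusted p = 0.0169, edgeR) and with a covariate for background reads (-0.63 ± 0.17, adjusted p = 0.0341), as were PMVK in both and MVK in the first of these fits. Without Puro replicate 2, 6 members were called in place of 3: FASN, ELOVL6, DHCR7 and FDFT1 higher, and FADS1 and FADS2 lower. Calls over all features rose to 7.07% in that fit.

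**Figure D5:**
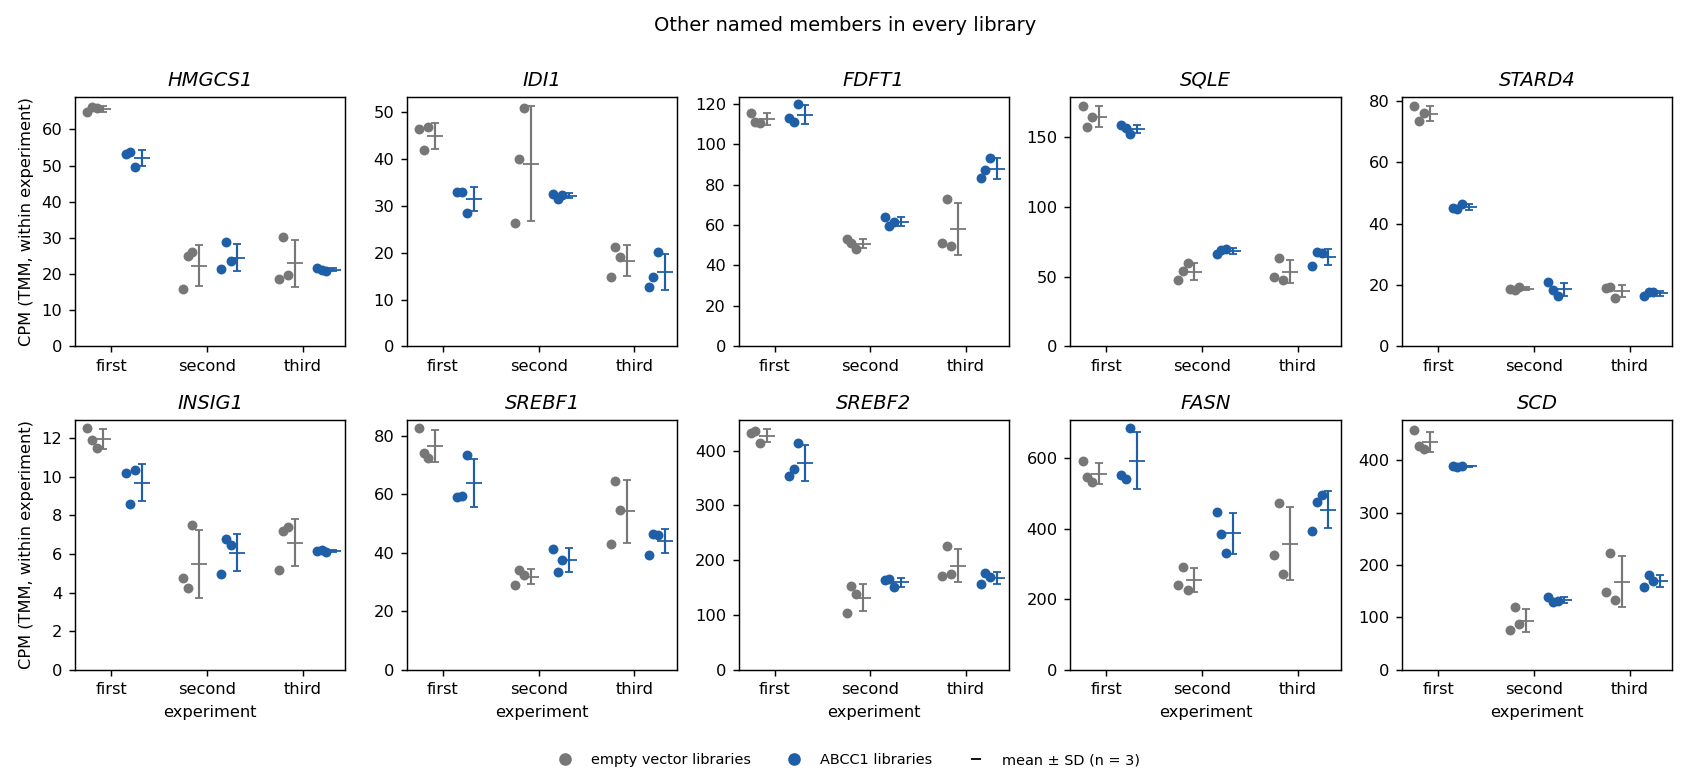
CPM of 10 other named members (y axis, from 0, TMM-scaled within each experiment) in every library, Puro in grey and ABCC1 in blue, with mean ± SD (n = 3). STARD4 and IDI1 separate the lines in the first experiment and overlap in the others, and FDFT1 separates them in the second and in the third.

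Over the 3 experiments, 5 of 32 members had a negative log2FC each time (FADS1, FADS2, IDI1, MVK and STARD4), against 17.6% of features tested in all experiments, and 7 had a positive one (ACLY, CYP51A1, ELOVL6, FASN, FDFT1, LSS and SCAP), against 32.3%. These counts moved with the settings: library totals alone gave 11 negative and 8 positive members (28.8% and 23.9% of features), a covariate for background reads 9 and 3 (19.5% and 24.1%), and the spread of all 18 libraries 4 and 13 (14% and 18.6%). Under 8 other settings and with the background level subtracted, FADS1, FADS2, IDI1 and MVK were negative and FDFT1 and LSS positive each time, while STARD4, at -0.02 and -0.06 in the later experiments, turned positive in at least 1 of them in 5 of these 9. In the joint fit the mean effect was called for 10 members, 8 higher and 2 lower, against 9.39% higher and 3.55% lower of 46225 features. The higher members were FDFT1 (0.37 ± 0.09), LSS (0.30 ± 0.09), CYP51A1 (0.45 ± 0.14), DHCR7 (0.31 ± 0.09), SCAP (0.28 ± 0.09), ACLY (0.28 ± 0.10), FASN (0.42 ± 0.11) and ELOVL6 (0.37 ± 0.09). The split of these calls differed as well. With RLE size factors 5 members were higher and 5 lower (11.7% of all features called, 3094 of 5411 higher). With at least 10 counts in every library it was 3 and 7 (36.8%, 2437 of 5442 higher), and with DESeq2 8 and 5 (13.7%, 3668 of 6326 higher). FDFT1, FASN and ELOVL6 were called higher, and FADS1 and FADS2 lower, in all 5 alternatives of the joint fit. LSS and DHCR7 kept their calls in 4, CYP51A1 and ACLY in 3 and SCAP in 1. With at least 10 counts in every library the mean effect fell to 0.09 for SCAP, 0.10 for ACLY, 0.12 for LSS and DHCR7 and 0.27 for CYP51A1, and none of these was called. It was also smaller for FDFT1 (0.19), ELOVL6 (0.19) and FASN (0.23). The lower members moved the same way: FADS2 went to -0.73, and the median over the members went from 0.10 to -0.09. The median mean effect was 0.10 over the members and -0.08 over all features, but 0.20 over features with a mean of at least 5 CPM in each experiment, where 30 members had 0.10.

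The test of a difference between experiments called 0 members by edgeR, against 1.19% of features, and 3 had an unadjusted p under 0.05 (9.04% of features): PMVK, FDFT1 and STARD4. STARD4 had an adjusted p of 0.145 in edgeR's fit of all features, with its log2FC 0.64 ± 0.20 higher in the second and 0.66 ± 0.21 higher in the third than in the first experiment. It was the 1 member called with RLE size factors (adjusted p = 0.0315), with at least 10 counts in every library (0.0292) and with DESeq2 (0.000623), and it was not called with limma voom and a spread for each experiment (0.17) or with the replicate block (0.191).

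Further genes of the pathways were counted from lists of related function, to be read against 17.9% of all features higher and 19.7% lower in the first experiment. Of 7 genes that process SREBP or regulate it, the first experiment had 3 higher and 2 lower; ERLIN1, which takes part in sterol-dependent degradation at the endoplasmic reticulum, was higher in each experiment (log2FC = 0.31 ± 0.04, 0.62 ± 0.16 and 0.60 ± 0.16, adjusted p = 0.000172, 0.0439 and 0.0217, edgeR). In the first experiment MBTPS2, the site-2 protease of SREBP, fell (-0.32 ± 0.04), as did RNF145 (-0.29 ± 0.04). Of 10 prenyl branch genes 1 was lower in the first experiment, RABGGTB (-0.38 ± 0.10), and none was called in the others.

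Of 14 further fatty acid synthesis genes 6 were lower and 2 higher in the first experiment, with SCD5 (-0.64 ± 0.06), ACSL3 (-0.57 ± 0.06) and ELOVL5 (-0.28 ± 0.06) the largest in size. SCD5 is a second stearoyl-CoA desaturase, ACSL3 activates fatty acids and ELOVL5 elongates polyunsaturated fatty acids between the steps of FADS2 and FADS1. None of the 14 was called in the later experiments. Of 10 fatty acid oxidation genes 3 were lower in the first experiment, and CPT1A, which controls entry of fatty acids into mitochondria, was lower in the first (-0.68 ± 0.05, adjusted p = 3.56e-06, edgeR) and the third (-0.63 ± 0.16, adjusted p = 0.011). Of 8 sterol transport and storage genes 3 were lower and 1 higher in the first experiment, led by POR (-0.47 ± 0.05), the reductase that feeds electrons to CYP51A1 and SQLE, and none was called later.

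Other markers moved with the line in the first experiment beside these counts, with the same shares over all features. Of 7 proliferation genes 6 were lower, with a summed level of 2721 to 2808 CPM in Puro and 2367 to 2509 in ABCC1 libraries. Of 8 adrenergic neuroblastoma genes 5 were lower and 1 higher (summed 9043 to 9957 against 6588 to 7253 CPM). Of 6 fibroblast genes 5 were tested and 4 were higher (134 to 138 against 206 to 209 CPM). The collagen genes were low in both lines, with means in Puro and ABCC1 libraries of 0.77 and 1.33 CPM for COL1A1 and 0.86 and 0.61 for COL3A1. COL1A2, not tested, had 0.012 and 0. Leukocyte genes summed to at most 0.294 CPM and hepatocyte genes to at most 1.08 CPM in the first experiment. In the second experiment 0 proliferation, adrenergic or fibroblast genes were called; in the third 0 proliferation and fibroblast genes were called, and of the adrenergic genes PHOX2A and DBH were lower and TH was higher. Their part in the changes of the lipid genes was not tested, and in these bulk samples fewer cells of a type and less RNA per cell cannot be told apart.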

How the data were processed

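The deposited files hold whole-number counts per gene and library. Per the labels and the study's methods, the authors made reads with bcl2fastq 2.18, aligned them with STAR 2.7.3a and counted them with featureCounts (Subread 2.0.0), without a strand option per the file headers, on a GRCh37 annotation with the vectors added. Genes were matched to symbols by Ensembl identifier, and spike-ins were left out. Counts were fitted within each experiment with edgeR 4.0.16 in R 4.3.3 (quasi-likelihood test, TMM scaling, a filter at 10 counts, two-sided, Benjamini-Hochberg adjustment over all features), and in a joint fit of 18 libraries. The script was checked on simulated counts. DESeq2 1.42.0, limma 3.58.1 and other settings were alternatives. The members and lists were chosen with earlier results of these data known. Values in every library are given for members called in at least 2 experiments, the 3 largest by log2FC among those called in each experiment, and HMGCS1, SQLE, INSIG1, SREBF1, SREBF2, FASN and SCD. Promoters were planned as whole RefSeq windows and read over the 250 bases before the start. The medians over features with a mean of at least 5 CPM and the values with background subtracted were chosen after seeing the data. Same-numbered libraries of the lines correlated at only -0.19 to 0.12, so numbers were not used as pairs.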

Additional observations from a re-analysis of the deposited data

How the results depend on the processing

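In the first experiment 14 members were called. A covariate for background reads left 4 (7.38% of all features, against 37.6%), in a fit where background and line cannot be told apart. The spread of all 18 libraries, with their joint filter and scaling, left 1, STARD4 (3.31% of all features), with adjusted p = 0.214 for FADS1 and 0.131 for FADS2. Leaving out each library gave 8 to 17 (26.2% to 46.2% of all features). It was 8 without Puro replicate 1 or 3 and 9 without Puro replicate 2 or ABCC1 replicate 2. In the second experiment 0 were called (1.7% of all features), against 5 with DESeq2 (ACLY, ELOVL6, FASN, LSS and SCD, with 8% of all features). It was 2 with no filter on low counts (2.58%) or with the shared spread (10.7%), ELOVL6 and FASN in both, and 1 with RLE size factors (ELOVL6, 3.19%). All of these were higher. It was 1 with at least 10 counts in every library (FADS2, lower, 3.55%). Leaving out each library gave 0 (0.0212% to 3.72%). In the third experiment 3 were called (2.8% of all features), against 6 with library totals alone (4.79%) and 1 to 6 with a library left out. It was 1 without Puro replicate 1 or 3 or ABCC1 replicate 2 or 3 (1.01% to 1.22% of all features) and 6 without Puro replicate 2 (7.07%). For the difference between experiments, 0 became 1 with RLE size factors, with at least 10 counts in every library and with DESeq2. FDFT1 in the third experiment lost its call with the background covariate (log2FC = 0.31), and FADS1 with RLE size factors (adjusted p = 0.0639). Subtracting the background level moved FADS2 there to -1.10, and turned 7 members of that experiment positive, none of them called before. The cause of these shifts was not tested. In the fits with a replicate block, 11, 0 and 4 members were called in the 3 experiments (31.5%, 2.08% and 5.16% of all features). For the mean effect it was 10 (12.5%) and for the difference 0. The pairing is by number only, and same-numbered pairs correlated at only -0.19 to 0.12. No called value changed sign under any alternative run. Background and depth limit what the later experiments can show for the members of lowest level.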
